A study of Mus musculus with 8 samples.

Results

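The 9 genes described here encode parts of 2 pieces of machinery of phagocytes, the cells that take up and destroy particles. Cybb, Cyba, Ncf1 and Ncf4 encode subunits of the phagocyte NADPH oxidase, and Fcgr1, Fcgr3, Fcgr4, Fcgr2b and Fcer1g encode Fc gamma receptors and the chain through which most of them signal. They were listed by name for their shared role, with earlier results of these data known, and all 9 were measured, each by 1 probe set that carries no other gene symbol, among 18820 genes in all. The oxidase passes electrons from NADPH to oxygen inside the phagosome. Its membrane core pairs gp91phox (Cybb) with p22phox (Cyba), and p47phox (Ncf1) and p40phox (Ncf4) join from the cytosol when the cell is activated. Fc gamma receptors bind the constant part of IgG on coated particles, and their cross-linking is one of the signals that switches the oxidase on. Adipose tissue macrophages carry both.

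Fat of the epididymal depot, a visceral white adipose tissue, came from 4 Sucnr1-/- and 4 wild-type (WT) male mice. Both genotypes came from crosses of heterozygotes on a C57BL/6 background, received a semi-synthetic low-fat diet (LFD) for 16 weeks and were killed at 24 to 26 weeks of age. In Sucnr1-/- mice a cassette with lacZ and a neomycin gene replaces a large part of the coding exon of Sucnr1, the receptor for extracellular succinate, in all cells. The RNA of each fat pad was hybridised to 1 Affymetrix whole-transcript array, so n = 4 mice per genotype throughout, and the values are log2 expression from robust multi-array average (RMA). The comparison asks whether loss of the succinate receptor goes with a different level of oxidase and Fc receptor RNA in fat of lean mice.

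Sucnr1 itself lay at 6.02, 6.05, 5.41 and 7.11 in the Sucnr1-/- mice, against 8.68, 8.97, 9.38 and 9.78 in the WT mice. The genotypes did not overlap, and the difference was -3.05 (SE 0.36) on the log2 scale (exact permutation p = 0.0286, the smallest that 4 mice against 4 allow; limma, adjusted p = 0.321). Whether all its probes lie inside the replaced part is not known here. Array medians lay between 6.28 and 6.36. After adjustment over all 18820 genes limma called 0 (0%), and so did the methods' t-test. Before adjustment, at a threshold of 0.05, limma gave 652 genes (3.46%) higher and 632 (3.36%) lower in Sucnr1-/- mice, and the methods' t-test 686 and 561. With each array centred on its median the split was 1352 higher and 330 lower. Adipocyte genes were high in both genotypes, with Plin1, the coat protein of the lipid droplet, chosen as a check of the tissue, at 12.84 ± 0.05 (SD, n = 4) in Sucnr1-/- and 12.70 ± 0.17 (SD, n = 4) in WT mice. The median difference of all genes was 0.01.

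The mean of each of the 9 genes was lower in Sucnr1-/- than in WT mice, by a log2 difference between -0.89 and -0.20 with a median of -0.35. Over all genes 46.8% had a lower mean. None of the 9 passed limma after adjustment over all genes (adjusted p between 0.712 and 0.761). Before adjustment 2 of the 9, Cybb and Fcer1g, had a lower mean with p under 0.05, beside 3.36% of all genes. The genotypes overlapped for all 9, where 1.87% of all genes had every Sucnr1-/- mouse below every WT mouse and 2.37% had every one above. The count of 2 was 0 without Sucnr1-/- replicate 2, without Sucnr1-/- replicate 3, without WT replicate 1 or without WT replicate 3. Over all genes 632 were lower with every mouse kept, and 368, 475, 518 and 601 without these mice, in the same order. The count among the 9 was 5 without Sucnr1-/- replicate 1 and 4 without WT replicate 4, beside 885 and 717 of all genes. The direction was the same for all 9 genes with any 1 mouse left out.

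**Figure D1:**
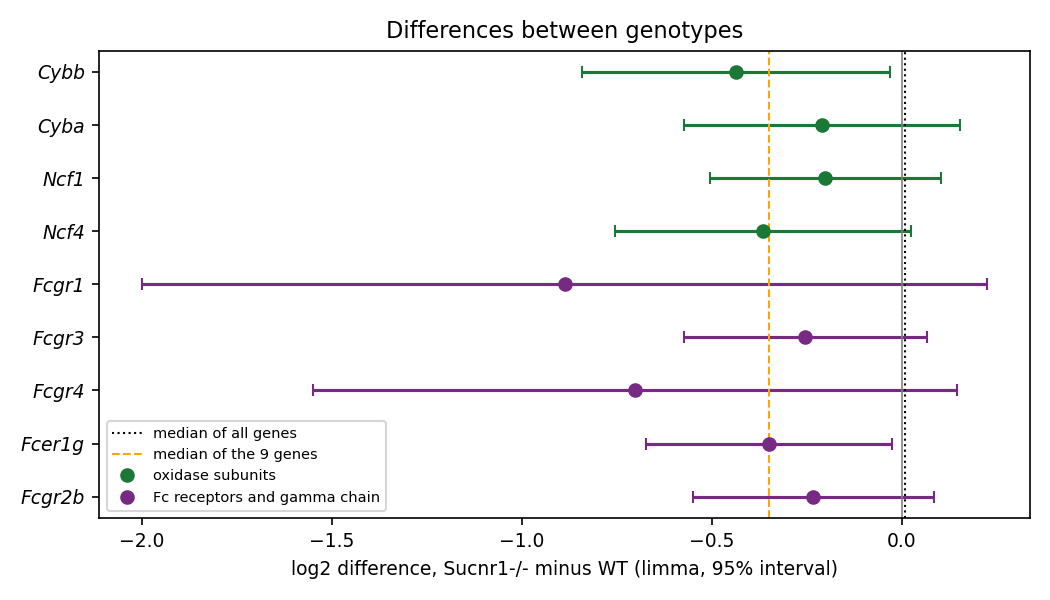
Log2 difference, Sucnr1-/- minus WT (horizontal axis), for each of the 9 genes (rows), with the 95% confidence interval from limma (n = 4 mice per genotype). Dashed line, median of the 9 genes (-0.35); dotted line, median of all 18820 genes (0.01). The intervals of Cybb and Fcer1g alone lie below 0, before adjustment for the number of genes tested.

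The promoters of these genes are given before their values because several hold letters bound by factors of the myeloid lineage. PU.1, the product of Spi1, is needed for macrophage development and binds a core of GAGGAA. Interferon regulatory factors bind the interferon-stimulated element, searched here as GAAA and GAAA with any 2 bases between them, and bind beside PU.1 at a composite element, searched as GGAA and TGAAA with any 1 base between them. Windows of 300 bases, 250 before and 50 after the start of transcription, were searched on both strands in RefSeq sequence of the mouse build GRCm38.p6, in which 8 of the 9 genes had an entry. GAGGAA was found at 4 of the 8 genes (Cybb, Fcgr1, Fcgr3 and Fcgr4), against 28.3% of all 32851 windows. The 8 were counted as genes and the background as windows, and Fcgr3 had 2 overlapping windows, each with a GAGGAA. The composite element was found at 2 genes, Cybb and Fcgr2b (0.731% of all windows), and the interferon-stimulated element at 3, Cybb, Ncf1 and Fcgr4 (3.44%). The windows of Cyba and Fcer1g held none of these letters. The windows of 4 genes that hold different combinations are printed, 5′ to 3′ on the strand of the gene, with matches to the 3 motifs in capitals.
Cybb: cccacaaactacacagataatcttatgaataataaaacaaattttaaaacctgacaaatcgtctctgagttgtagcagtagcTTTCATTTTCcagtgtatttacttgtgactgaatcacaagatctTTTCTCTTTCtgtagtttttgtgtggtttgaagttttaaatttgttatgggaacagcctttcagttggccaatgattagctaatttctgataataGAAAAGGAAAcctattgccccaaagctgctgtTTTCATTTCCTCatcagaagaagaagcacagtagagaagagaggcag
Fcgr1: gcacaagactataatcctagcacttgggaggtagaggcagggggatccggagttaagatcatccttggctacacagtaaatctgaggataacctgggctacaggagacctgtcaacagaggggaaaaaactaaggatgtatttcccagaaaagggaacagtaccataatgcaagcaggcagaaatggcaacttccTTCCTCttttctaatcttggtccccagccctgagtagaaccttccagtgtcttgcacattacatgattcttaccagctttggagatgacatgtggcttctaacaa
Fcgr4: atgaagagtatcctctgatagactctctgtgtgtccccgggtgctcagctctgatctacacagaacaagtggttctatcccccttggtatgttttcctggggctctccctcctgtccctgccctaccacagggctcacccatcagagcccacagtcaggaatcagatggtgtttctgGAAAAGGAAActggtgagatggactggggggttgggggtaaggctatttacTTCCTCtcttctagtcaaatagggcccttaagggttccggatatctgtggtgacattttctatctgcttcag
Fcgr2b: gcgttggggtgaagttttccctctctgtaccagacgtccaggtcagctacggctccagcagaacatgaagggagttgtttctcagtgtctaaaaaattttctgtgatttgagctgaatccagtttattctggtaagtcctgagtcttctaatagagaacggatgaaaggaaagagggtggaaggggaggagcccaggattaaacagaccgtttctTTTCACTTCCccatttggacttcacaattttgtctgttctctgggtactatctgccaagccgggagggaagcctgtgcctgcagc
The windows lie at chrX:9469275-9469574 (minus strand) for Cybb, chr3:96293920-96294219 (minus strand) for Fcgr1, chr1:171018676-171018975 (plus strand) for Fcgr4 and chr1:170976022-170976321 (minus strand) for Fcgr2b. At Cybb the composite element (bases 4 to 13, counted from the first transcribed base) and a GAGGAA (bases 10 to 15) overlap. At Fcgr1 the GAGGAA match begins at base -55, and at Fcgr4 GAGGAA begins at base -22. A match is a run of letters, and binding was not measured.

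Cybb, the catalytic subunit of the oxidase, had values of 10.58, 10.01, 10.50 and 10.72 in Sucnr1-/- mice, against 10.99, 10.62, 11.23 and 10.72 in WT mice. WT mouse 3 was highest and Sucnr1-/- mouse 2 lowest, and 3 Sucnr1-/- mice were under the lowest WT value. The difference was -0.44 (SE 0.18), a ratio of 0.739 between Sucnr1-/- and WT (limma, unadjusted p = 0.0379, adjusted p = 0.712; exact permutation p = 0.0857). It ranged from -0.53 to -0.29 over the alternatives, and was nearest to 0 without Sucnr1-/- replicate 2. Cyba, the membrane partner that stabilises gp91phox and also serves other NADPH oxidases, had 10.64, 10.39, 10.23 and 10.42 in Sucnr1-/- mice, against 11.00, 10.56, 10.74 and 10.23 in WT mice. No Sucnr1-/- mouse lay below the lowest WT mouse. The difference was -0.21 (95% interval -0.57 to 0.15). It was -0.09 without WT replicate 1 and -0.34 without WT replicate 4.

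Ncf1, the cytosolic organiser whose loss in humans causes chronic granulomatous disease, had 8.43, 8.01, 8.37 and 8.67 in Sucnr1-/- mice, against 8.63, 8.59, 8.66 and 8.39 in WT mice. Its highest and its lowest value were both in Sucnr1-/- mice, in mouse 4 and mouse 2, and the difference was -0.20 (95% interval -0.51 to 0.10). The size depended on those mice: it was -0.08 without Sucnr1-/- replicate 2 and -0.30 without Sucnr1-/- replicate 4. Ncf4, which binds phosphoinositide on the phagosome, had 7.35, 6.75, 6.71 and 6.75 in Sucnr1-/- mice, against 7.60, 7.08, 7.27 and 7.07 in WT mice. Sucnr1-/- mouse 1 lay among the WT mice and the other 3 Sucnr1-/- mice lay close together below them. The difference was -0.37 (SE 0.17; limma, adjusted p = 0.719; exact permutation p = 0.114), and -0.52 without Sucnr1-/- replicate 1. To ask whether subunits of the complex changed unequally, each was set against Cyba of the same mouse. Exact permutation of these mice gives no p under 0.0286, so after adjustment no subunit could pass alone. The genotype difference of Cybb relative to Cyba was -0.22, of Ncf1 0.01 and of Ncf4 -0.16, and none of these 3 passed (exact permutation, p from 0.229 to 1, adjusted p from 0.514 to 1).

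**Figure D2:**
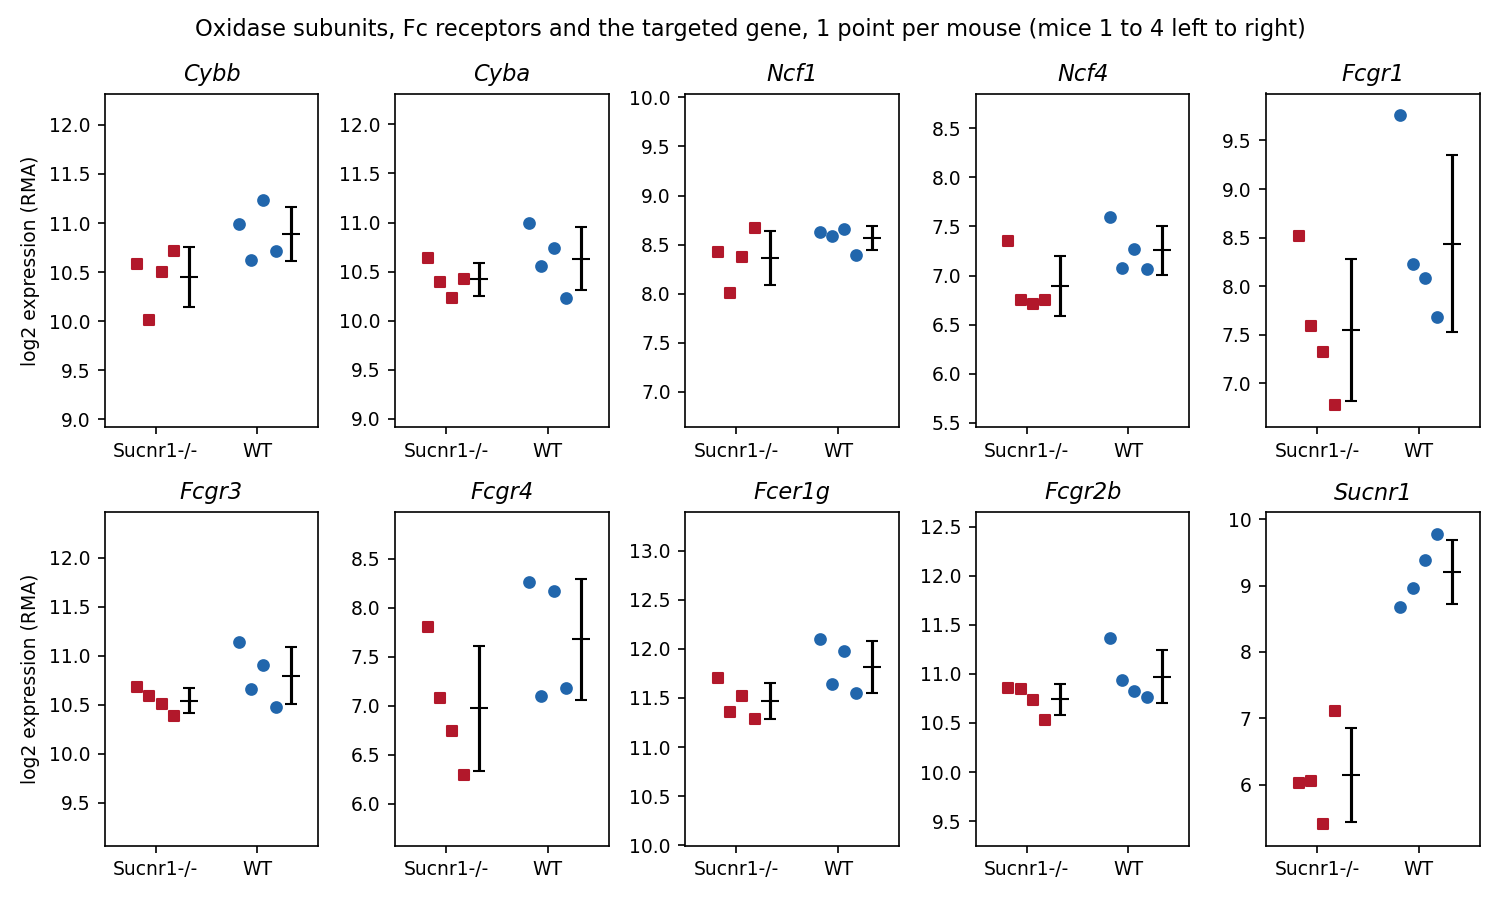
Log2 expression (RMA, vertical axis, with a different range for each gene) of the 9 genes and Sucnr1, 1 point per mouse, Sucnr1-/- as red squares and WT as blue circles. The black bars beside the points give the mean and SD of the 4 mice. The genotypes overlap for every gene apart from Sucnr1, with the widest spread for Fcgr1 and Fcgr4.

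Among the activating receptors, Fcgr1, the high-affinity receptor that binds monomeric IgG, and Fcgr4, a receptor for IgG2a and IgG2b, had the widest differences of the 9 genes and the widest spread. Fcgr1 had 8.52, 7.59, 7.32 and 6.77 in Sucnr1-/- mice, against 9.76, 8.23, 8.08 and 7.68 in WT mice. In WT mouse 1 it was the highest value of all, and in Sucnr1-/- mouse 1 it lay above 3 of the 4 WT mice. The mean was 7.55 ± 0.73 (SD, n = 4) in Sucnr1-/- and 8.44 ± 0.91 (SD, n = 4) in WT mice, a log2 difference of -0.89 (SE 0.49; limma, adjusted p = 0.728), or a ratio of 0.54 between Sucnr1-/- and WT. Without WT replicate 1 the difference was -0.45, and without Sucnr1-/- replicate 1 it was -1.21. Fcgr4 had 7.80, 7.08, 6.74 and 6.29 in Sucnr1-/- mice, against 8.26, 7.10, 8.17 and 7.18 in WT mice. WT mice 1 and 3 stood well above WT mice 2 and 4, and 3 Sucnr1-/- mice lay below all WT mice. The difference was -0.70 (SE 0.37; limma, adjusted p = 0.728; exact permutation p = 0.143), with a ratio of 0.614 between Sucnr1-/- and WT. It was -0.98 without Sucnr1-/- replicate 1 and -0.47 without Sucnr1-/- replicate 4.

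Fcer1g, the common gamma chain with the activation motif through which Fcgr1, Fcgr3, Fcgr4 and the IgE receptor signal, had 11.70, 11.36, 11.52 and 11.29 in Sucnr1-/- mice, against 12.10, 11.64, 11.98 and 11.55 in WT mice. All but Sucnr1-/- mouse 1 lay below the lowest WT mouse. The difference was -0.35 (SE 0.14), a ratio of 0.785 between Sucnr1-/- and WT (limma, unadjusted p = 0.0371, adjusted p = 0.712; exact permutation p = 0.114). Fcgr3, the low-affinity activating receptor, had 10.68, 10.59, 10.51 and 10.39 in Sucnr1-/- mice, against 11.14, 10.66, 10.91 and 10.48 in WT mice. Its spread was 0.13 (SD, n = 4) in Sucnr1-/- and 0.29 (SD, n = 4) in WT mice, and the difference was -0.25 (95% interval -0.57 to 0.07), and -0.14 without WT replicate 1. Fcgr3 and Fcgr2b are close relatives in the part that faces outward, so how far their probe sets separate them is uncertain.

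Fcgr2b, the inhibitory receptor, which recruits the phosphatase SHIP and is also carried by B cells, had 10.86, 10.85, 10.73 and 10.53 in Sucnr1-/- mice, against 11.37, 10.94, 10.83 and 10.76 in WT mice. Apart from WT mouse 1 the mice lay within a narrow range, and the difference was -0.23 (95% interval -0.55 to 0.08), and -0.10 without WT replicate 1. The balance of activating and inhibitory receptors sets how strongly a phagocyte answers IgG, so each activating gene was also set against Fcgr2b within the same mouse. The genotype difference was -0.66 for Fcgr1, -0.47 for Fcgr4, -0.12 for Fcer1g and -0.02 for Fcgr3. None of these 4 differences passed (exact permutation, p from 0.229 to 0.971, adjusted p from 0.514 to 0.971), and the genotypes overlapped for each. The smallest p that this test allows is 0.0286, so no single difference could have passed alone after adjustment.

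Fcgr2b, Fcgr4 and Fcgr3 follow each other on chromosome 1, in this order, with Fcrla and Fcrlb on one side and Sdhc, a subunit of succinate dehydrogenase, beyond Fcgr3, and Fcer1g lies further on, between Apoa2 and Adamts4. Of 11 measured neighbours of these genes on chromosome 1, 6 had a lower and 5 a higher mean in Sucnr1-/- mice, with a median difference of -0.06. The difference was -0.45 (SE 0.32) for Fcrla, a B cell gene, 0.04 (SE 0.08) for Fcrlb and 0.12 (SE 0.06) for Sdhc. Fcrla and Fcrlb lay under the array medians in both genotypes, at 5.80 and 5.86 in Sucnr1-/- and 6.26 and 5.81 in WT mice. Adamts4, a protease of the matrix, had the widest difference of the 11 at -0.75 (SE 0.51). Ppox, an enzyme of haem synthesis, was the only 1 with an unadjusted p under 0.05, at 0.22 (SE 0.09), where 3.46% of all genes were higher at that threshold. None of the 11 passed limma after adjustment (adjusted p between 0.719 and 0.968), and the 5 named were chosen after their values were seen. Around all 9 genes 45 neighbours were measured, with a median of 0.00, of which 22 had a lower mean, beside 46.8% of all genes.

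WT mouse 1 had the highest value for 7 of the 9 genes and WT mouse 3 for Cybb. Sucnr1-/- mouse 4 was lowest for 5 genes, Fcer1g and the 4 receptors, yet highest for Ncf1. Sucnr1-/- mice 2 and 3 lay below the mean of the 8 mice for all 9 genes, whereas Sucnr1-/- mouse 1 lay above it for 6 and WT mouse 4 for 1. With the mean of each genotype subtracted, Pearson's r over the 8 mice lay between -0.19 and 0.93 for the 36 pairs of these genes, with a median of 0.73 and 32 pairs above 0. Cybb and Ncf1 went together (r 0.84) and less with the rest: Ncf1 had r between -0.19 and 0.38 with the other 7 genes, and Cybb between -0.15 and 0.52. Among those 7 genes r lay between 0.64 and 0.93. This is a description of 8 arrays that share tissue make-up and handling, and no p is given.

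**Figure D3:**
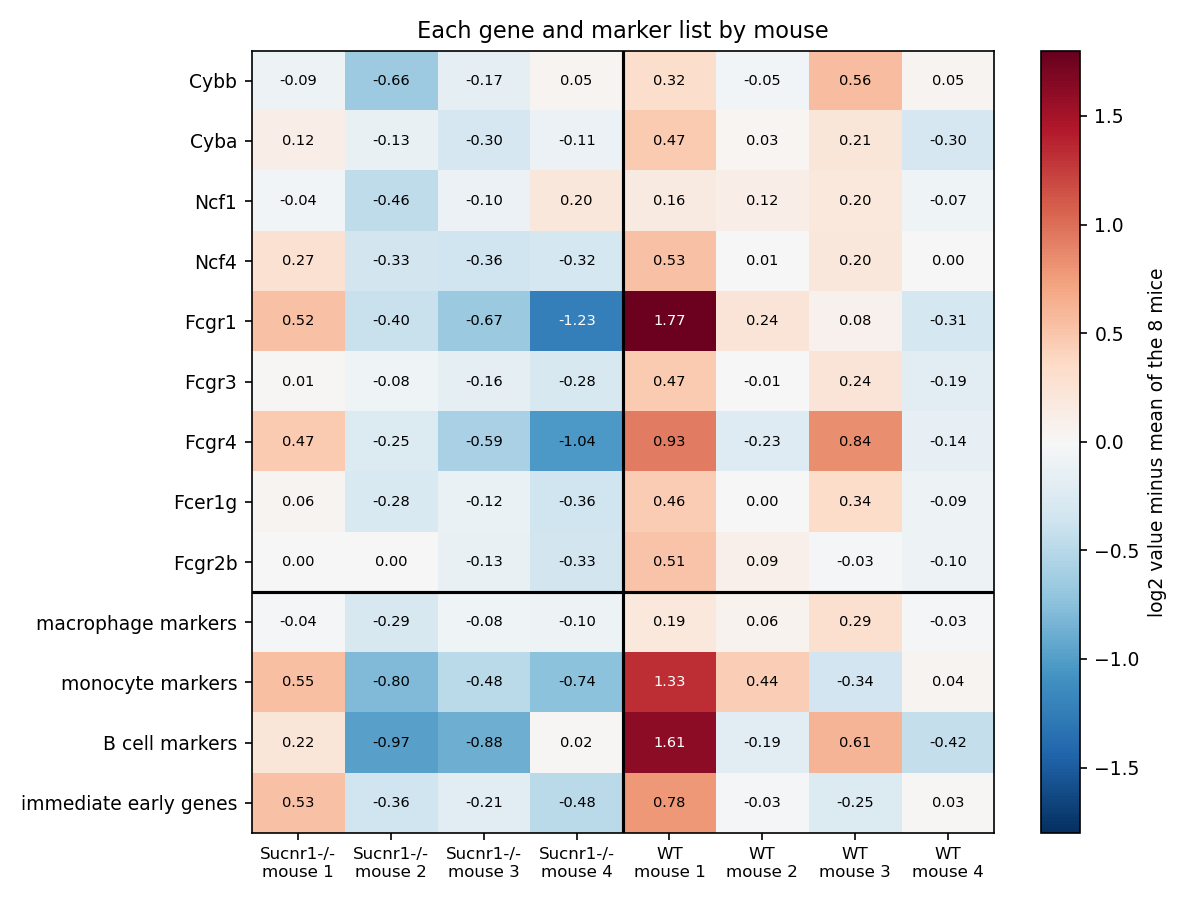
Log2 value minus the mean of the 8 mice (colour and printed value) for the 9 genes and, below the line, for the mean of 4 marker lists (rows), in each mouse (columns, Sucnr1-/- left, WT right). WT mouse 1 is above the mean in all 13 rows, and Sucnr1-/- mice 2 and 3 are below it in all of them.

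With the genotype means subtracted in the same way, the genes most like Cybb among 16870 compared were Twf2 (r 0.97, Spearman's rho 0.88), Lrrc74b (0.97 and 0.95), Anxa13 (0.97 and 0.95), S100a4 (0.96 and 1.00) and Fasl (0.96 and 0.98). Of these S100a4, a calcium-binding protein of myeloid and stromal cells, differed by -0.34 (SE 0.13), and the other 4 by between -0.10 and 0.07. The genes most like Fcgr2b were Znhit6 (r 0.99, rho 0.95), Rtp4 (0.99 and 1.00), Oasl1 (0.99 and 0.93), Rars (0.99 and 0.98) and Casp8 (0.98 and 1.00). Rtp4 and Oasl1 are induced by interferon, and they differed by -0.62 (SE 0.39) and -0.93 (SE 0.51). With the 2 mice farthest out left aside, r lay between 0.87 and 0.93 for the Cybb set and between 0.95 and 0.99 for the Fcgr2b set. These genes were picked as the highest of many over 8 mice, so the values are a description only.

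Of 13 measured genes of a list of activators, further subunits and oxidases of other cells, 8 had a lower mean (46.8% of all genes did), with a median of -0.04, and before adjustment 2, Prkcd and Rac2, were lower with p under 0.05 (3.36% of all genes). Rac2, the small GTPase of the phagocyte oxidase, was at 9.01 ± 0.43 (SD, n = 4) in Sucnr1-/- and 9.66 ± 0.45 (SD, n = 4) in WT mice, a difference of -0.65 (SE 0.26). Prkcd and Prkcb, protein kinases that phosphorylate p47phox, differed by -0.49 (SE 0.16) and -0.31 (SE 0.14). Rac1, the form found in most cells, differed by -0.04 (SE 0.06), and Nox4, an oxidase of non-phagocytic cells that pairs with p22phox, by -0.09 (SE 0.16), both chosen after their values were seen. Duoxa2, a maturation factor of an epithelial oxidase, ran the other way at 0.17 (SE 0.08). Its level was low, 4.92 in Sucnr1-/- and 4.75 in WT mice, under the array medians of 6.28 to 6.36. None passed limma over all genes (adjusted p between 0.712 and 0.99).

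Of 20 measured genes of Fc receptor signalling, 18 had a lower mean, with a median of -0.32, and before adjustment 4, Lat2, Was, Dock2 and Elmo1, were lower with p under 0.05, beside 46.8% and 3.36% of all genes. Lat2, an adaptor of myeloid, mast and B cells, was at 7.94 ± 0.09 (SD, n = 4) in Sucnr1-/- and 8.56 ± 0.42 (SD, n = 4) in WT mice, a difference of -0.63 (SE 0.19). The genotypes did not overlap for 2 of the 20 genes, Lat2 and Elmo1. Over all genes 1.87% had every Sucnr1-/- mouse below every WT mouse. Dock2 and Elmo1, which act on Rac, differed by -0.45 (SE 0.16) and -0.17 (SE 0.07), and Was, which drives actin assembly at the phagocytic cup, by -0.42 (SE 0.14). The kinase Syk, which docks on the phosphorylated gamma chain, differed by -0.32 (SE 0.16), and Tyrobp, another adaptor with an activation motif, by -0.33 (SE 0.16), both chosen after their values were seen. Of 12 other immunoglobulin receptors 9 had a lower mean (median -0.26). Fcer1a, the IgE-binding chain of mast cells, differed by -0.30 (SE 0.10), Fcrls by -0.27 (SE 0.12), Fcmr, the IgM receptor, by -0.79 (SE 0.39) and Fcamr by 0.35 (SE 0.20). Of these 12 the genotypes did not overlap for Fcer1a alone. The level of Fcer1a was low, 4.79 in Sucnr1-/- and 5.10 in WT mice, under the array medians. None of the genes of either list passed limma over all genes (adjusted p between 0.712 and 0.959).

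Genes that handle the oxidants made by the oxidase were divided evenly. Of 21 measured, 11 had a lower and 10 a higher mean (median -0.02), and none had an unadjusted p under 0.05. Sod1, the cytosolic superoxide dismutase, differed by 0.13 (SE 0.06), Prdx2, a peroxiredoxin, by 0.11 (SE 0.07), Gclc, the rate-limiting enzyme of glutathione synthesis, by -0.20 (SE 0.11) and Txnrd1 by -0.28 (SE 0.27). Among 9 measured myeloid transcription factors 6 had a lower mean (median -0.17), beside 46.8% of all genes. Spi1 was at 9.92 ± 0.23 (SD, n = 4) in Sucnr1-/- and 10.30 ± 0.30 (SD, n = 4) in WT mice, a difference of -0.38 (SE 0.16). Whether its level bears on the genes with a motif match was not tested. Irf5 differed by -0.36 (SE 0.15), Runx1 by -0.51 (SE 0.35) and Klf4 by -0.17 (SE 0.11), and none passed limma over all genes (adjusted p between 0.712 and 0.953).

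**Figure D4:**
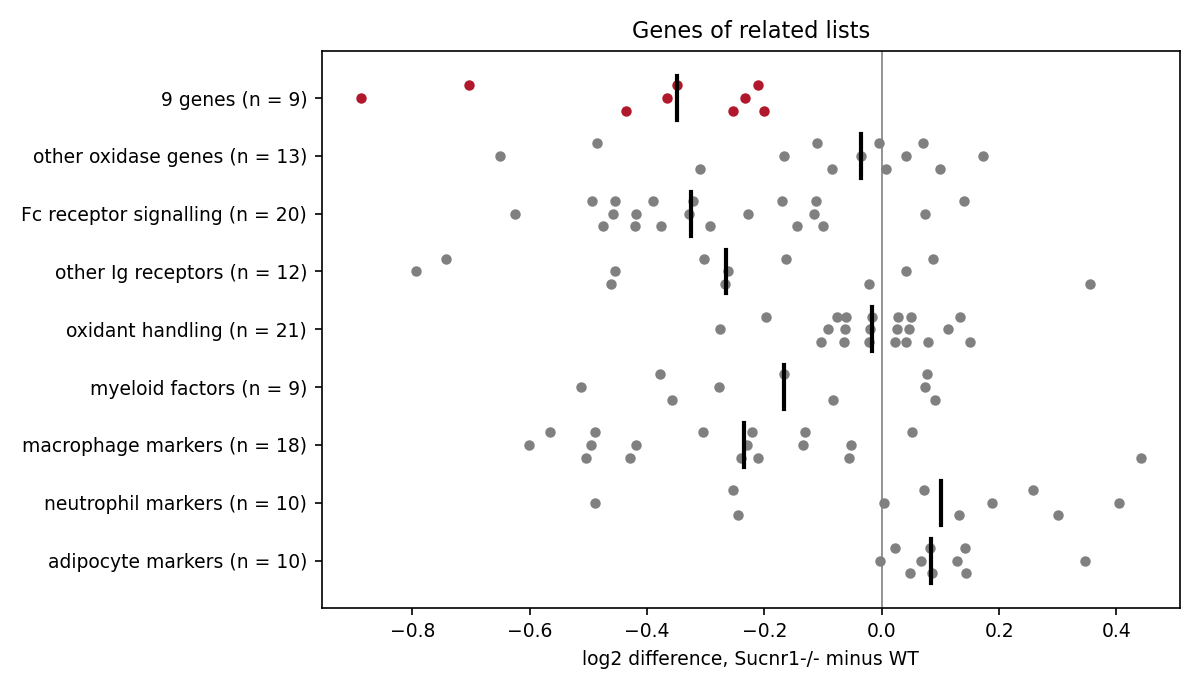
Log2 difference, Sucnr1-/- minus WT (horizontal axis), of each gene (points, offset vertically for clarity) of the 9 genes (red) and of 8 related lists (grey), with the median of each list as a black bar. The 9 genes and Fc receptor signalling have medians of -0.35 and -0.32, and oxidant handling one of -0.02.

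In whole tissue, fewer cells of a type and less RNA per cell cannot be told apart. Macrophage markers had lower means in Sucnr1-/- mice for 16 of 18 genes (median -0.23), beside 46.8% of all genes. The summed level of these markers, the mean of the centred log2 values, lay between -0.29 and -0.04 in Sucnr1-/- mice and between -0.03 and 0.29 in WT mice. Adgre1, a surface receptor of mature macrophages, differed by -0.50 (SE 0.15), Cd68, a lysosomal glycoprotein, by -0.49 (SE 0.15), Mrc1, the mannose receptor, by -0.42 (SE 0.17) and C1qa by -0.24 (SE 0.12), while Mertk, a receptor for apoptotic cells that was chosen after its value was seen, differed by 0.44 (SE 0.12). Set against this macrophage level within the same mouse, the differences of the 9 genes ran from -0.63 for Fcgr1 and -0.45 for Fcgr4 to 0.05 for Ncf1. None of the 9 passed (exact permutation, p from 0.286 to 1, adjusted p from 0.926 to 1), and the genotypes overlapped for each. The difference was -0.18 for Cybb, -0.11 for Ncf4, -0.09 for Fcer1g, 0.00 for Fcgr3, 0.02 for Fcgr2b and 0.04 for Cyba. Since the exact p could not be under 0.0286, no gene could have passed alone after adjustment over the 9.

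Other cells that carry some of these genes were covered by further marker lists, for which lower means were found in 3 of 3 monocyte (median -0.73), 7 of 7 mast cell (-0.54), 6 of 7 dendritic cell (-0.31), 7 of 7 B cell (-0.82), 8 of 8 T cell (-0.23), 5 of 7 NK cell (-0.09) and 3 of 10 neutrophil genes (0.10). Beside these counts and those below, 46.8% of all genes had a lower mean. The summed level of the mast cell markers did not overlap, at -0.41 to -0.02 in Sucnr1-/- and 0.08 to 0.42 in WT mice. Nor did that of the macrophage markers, by a narrow margin. The level of the monocyte markers ran from -0.80 to 0.55 in Sucnr1-/- and from -0.34 to 1.33 in WT mice. That of the B cell markers ran from -0.97 to 0.22 and from -0.42 to 1.61, with WT mouse 1 highest in both lists. The level of the neutrophil markers ran from -0.66 to 1.54 in Sucnr1-/- and from -0.65 to 0.88 in WT mice. The member of smallest p was Plac8 for monocytes (-0.73, SE 0.42), Tpsb2 for mast cells (-0.73, SE 0.12), Itgax for dendritic cells (-0.48, SE 0.20), Cd22 for B cells (-0.82, SE 0.31), Cd3d for T cells (-0.40, SE 0.26), Prf1 for NK cells (-0.30, SE 0.12) and Ngp for neutrophils (0.07, SE 0.06). Cd3d, Prf1 and Ngp lay under the array medians in both genotypes. Their means were 5.05, 5.92 and 3.92 in Sucnr1-/- and 5.45, 6.22 and 3.85 in WT mice. Lower means were also found for 0 of 4 eosinophil (0.12), 5 of 8 endothelial (-0.01), 1 of 10 adipocyte (0.08), 4 of 7 stromal (-0.01), 6 of 6 mesothelial (-0.19) and 1 of 3 epididymis genes (0.08). Their members of smallest p were Siglecf (0.14, SE 0.10), Kdr (-0.18, SE 0.17), Slc2a4 (0.35, SE 0.14), Pi16 (-0.24, SE 0.12), Wt1 (-0.19, SE 0.24) and Lcn5 (0.08, SE 0.08), in the same order. Siglecf and Lcn5 too lay under the array medians, at 6.18 and 4.94 in Sucnr1-/- and 6.04 and 4.86 in WT mice. Slc2a4, the insulin-responsive glucose transporter, was the only 1 of the 10 adipocyte genes with an unadjusted p under 0.05. Over all genes 3.46% were higher at that threshold. Immediate early genes, which respond to handling, were lower for 10 of 13 (-0.24), with levels of 0.53 in Sucnr1-/- mouse 1 and 0.78 in WT mouse 1, against -0.48 to 0.03 in the other mice. No member of these marker lists passed limma over all genes, and their part in the lower means of the 9 genes was not tested.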

How the data were processed

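RNA of epididymal fat from 4 Sucnr1-/- and 4 WT mice was measured on 8 arrays, 1 per mouse, and groups follow the sample labels. The authors deposited log2 expression values made with RMA, which corrects background, normalizes arrays together and summarises probes, so differences in total signal are removed and low values compressed. For the RMA version and the genome build, the sources used here name none. Arrays carry no read depth, and their number limits the precision.

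Of 35556 probe sets 21218 had exactly 1 gene symbol, 1881 several and 12457 none in the annotation used, and 21185 of the 21218 were matched to RefSeq. For the 1386 genes with several probe sets the brightest was used, without a filter on dim genes. Genotypes were compared with lmFit and eBayes of limma 3.58.1 under R 4.3.3 (2.66 prior degrees of freedom), with Benjamini-Hochberg adjustment over 18820 genes and a threshold of 0.05, after testing on simulated data. Intervals are 95% intervals from that fit, before adjustment. Within-mouse differences were compared by two-sided exact permutation over the mice, with adjustment within each family of 4, 3 or 9 differences. The rule for named genes took the 9 genes, Sucnr1, the 4 genes of smallest p of each related pathway list, Adgre1, Cd68, Mrc1 and C1qa, the marker of smallest p of each other cell type, and the 5 genes most like Cybb and most like Fcgr2b, leaving out predicted genes and receptor segments. The members and lists were chosen with earlier results of these data known. Alternatives were the methods' t-test, a prior that depends on intensity, weights per array, scaling by medians or by quantiles, a filter on the 40% of genes with the lowest mean, averaging of probe sets, a block for replicate number, and leaving out each mouse. Plots were made in Python 3.11.15 using matplotlib 3.10.9. Genes of the lists without a probe set of their own were not analysed here.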

Additional observations from a re-analysis of the deposited data

Results flagged for a closer look

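Ncf4 in Sucnr1-/- mouse 1 stood far from its group, at 7.346 against 6.71 to 6.75 in the other 3 Sucnr1-/- mice. It was found in 1 of 22 groups of 4 mice examined for a distant sample, and chance gives about 1 in 20 such groups.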

How the results depend on the processing

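All 9 genes had a lower mean in Sucnr1-/- mice under each of 16 alternatives and without WT replicate 1 and Sucnr1-/- replicate 1 together, which was chosen after seeing the data. Of the alternatives, the methods' t-test, the intensity-dependent prior, the filter on dim genes, the replicate block and the averaging of probe sets could not change a direction. They leave the difference of each of these genes as it was. The differences of the 9 genes ran from -1.21 to -0.08, the median of the 9 from -0.43 to -0.25 with 1 mouse left out, and adjusted p from 0.304 to 0.937. The number of the 9 that were lower before adjustment, 2 as reported, was 0 by the methods' t-test, 0 with median centring, 0 to 5 with 1 mouse left out and 4 without both first mice. Of the 11292 genes left without the 40% of lowest mean, 369 were higher and 535 lower before adjustment, against 652 and 632 of all 18820. Median centring, which moved the median of all genes to 0.05, gave 1352 higher and 330 lower. With 1 mouse left out 440 to 870 were higher and 368 to 885 lower. With the replicate number as a block, 7 of the 9 and 1096 of all genes were lower before adjustment, and 0 passed after it. Mice of the same number correlated by 0.45, 0.14, 0.11 and 0.01 in their deviations, and 2 of the Sucnr1-/- mice did not correlate best with their own number, so the numbers are not taken to pair the mice. Some within-mouse differences near 0 changed sign with 1 mouse left out. Relative to Fcgr2b, Fcgr3 ran from -0.0573 to 0.0652. Relative to Cyba, Ncf1 ran from -0.0926 to 0.121, and was -0.0373 without both first mice. Relative to the macrophage markers, Cyba ran from -0.0365 to 0.146, Ncf1 from -0.0365 to 0.119, Fcgr3 from -0.069 to 0.0957 (and -0.00629 with quantile normalization) and Fcgr2b from -0.0822 to 0.133. The causes were not tested. With 4 mice per genotype, exact permutation cannot give less than 0.0286. After adjustment within a family, no single within-mouse difference could therefore pass 0.05 alone.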
